A study of Mus musculus with 5 samples.

Results

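Peaks of the zinc finger protein ZFP541 were examined at 10 Polycomb genes of the mouse: Ezh1, Ezh2, Eed, Suz12, Jarid2, Mtf2, Phf1, Phf19, Bmi1 and Scml2. These 10 were taken by name from 21775 protein-coding genes, and every peak on the gene body or within 10 kb of it was collected. Chromatin of pachytene and diplotene spermatocytes, enriched from testes of adult C57BL/6 mice by sedimentation (STA-PUT), was fixed for 10 min in 1% formaldehyde and precipitated with a rabbit antibody whose epitope is given as residues 1 to 300 of ZFP541. Peak lists came from 2 wild-type (WT) libraries and 1 library of Zfp541-/- cells with the same antibody; 2 WT input libraries without antibody were not analysed here. The labels name neither the kind of knockout allele nor the number of mice behind a library, and peak lists hold no expression values with which the labelled cell type could be checked.

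Polycomb proteins keep genes silent through 2 chromatin-modifying complexes. Polycomb repressive complex 2 (PRC2) methylates lysine 27 of histone H3 through EZH1 or EZH2, held together by EED and SUZ12, and accessory subunits such as JARID2, MTF2, PHF1 and PHF19 bring it to chromatin. Polycomb repressive complex 1 (PRC1) attaches ubiquitin to histone H2A, and BMI1 is one of the partners of its catalytic RING subunits. SCML2, encoded on the X chromosome, is a Polycomb protein best known from the male germline. ZFP541 itself is a germ-cell protein that acts with histone deacetylases.

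Of the 10 genes, 5 had a peak shared by both WT libraries, and all 5 carried it at the start of transcription: Jarid2, Bmi1, Ezh2, Suz12 and Ezh1. Here a shared peak is a replicate 1 peak and a replicate 2 peak with at least 1 bp in common. Within 10 kb of the gene body, 5 of 10 compare with 29.4% of all protein-coding genes. Within 1 kb of a start, 5 of 10 compare with 21.4%, where genes without a start in the table used were read at both gene ends. When peaks with a −log10 q below 10 were left out, 3 remained on both measures, without Ezh1 and Suz12. The share of all protein-coding genes under that minimum is not given here, so the 3 have no like comparison. The median gene length was 38184 bp for the 10 and 17219 bp for all protein-coding genes, so their windows were wider on the first measure. Replicate 1 alone had a peak within 10 kb of 7 genes, against 33.8% of all genes, and replicate 2 of 6, against 39.4%. No peak of the Zfp541-/- library lay within 10 kb of any of the 10, where 0.34% of all protein-coding genes had one. The knockout was 1 library and the lists give no value where there is no peak, so no test between genotypes was run.

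Each peak has a fold enrichment, which is the authors' own value and the ratio of stacked sequenced fragments at the highest point (the summit) to the number expected there, after 1 is added to each. In MACS2, the peak caller named in the processing notes, both numbers can be solved from the fold and the −log10 p together. The solution was a whole number of fragments within 0.01 for 99.98% of 8198 peaks of replicate 1, 99.95% of 10340 of replicate 2 and 99.5% of 216 of the knockout. The lowest expected number was 1.80, 1.98 and 1.93 fragments in that order, at which 1 fragment more or less moved the fold by 0.357, 0.336 and 0.342. Total read numbers remain unknown. A summit is the highest point of its peak, so no counting interval is given for it.

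**Figure D1:**
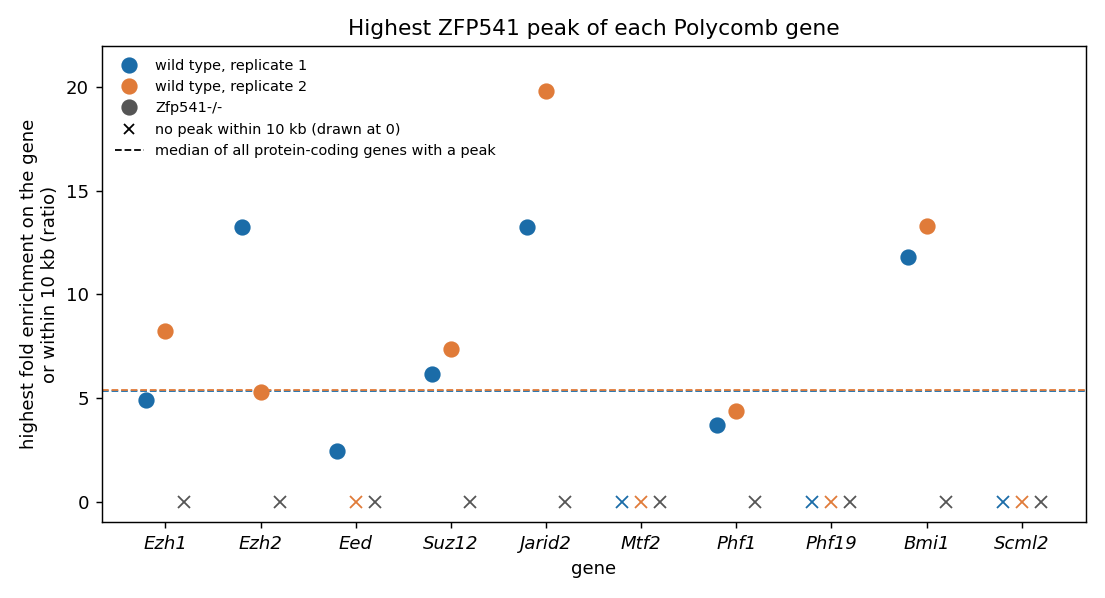
Highest fold enrichment (y axis, ratio) of any peak on each gene or within 10 kb (x axis), 1 point per library; crosses at 0 mark genes without a peak, and dashed lines mark the medians of 5.36 and 5.37 over all protein-coding genes with a peak in replicates 1 and 2. Jarid2, Bmi1 and Suz12 lay above the medians in both WT libraries, Ezh2 in replicate 1 only and Ezh1 in replicate 2 only, and the Zfp541-/- library had no peak at any of the 10.

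The upstream sequences of the 5 genes with a shared peak at the start are shown because the peaks cover them in whole or in part; the replicate 1 peak of Ezh1 covers 139 of the 300 bases around its start. Mtf2, which had no peak, is added for comparison. Each run is the 250 bases before the start of transcription, read 5′ to 3′ on the gene's strand, from RefSeq on GRCm38.p6, the assembly of mm10. Capitals mark exact matches, on either strand, to the letters CCAAT, to the GC box GGGCGG or to the E-box CACGTG. Neighbouring GC boxes can overlap. The runs lie at chr13:44730524-44730773 (plus strand) for Jarid2, at chr2:18676768-18677017 (plus) for Bmi1 and at chr6:47595031-47595280 (minus) for Ezh2. Those of Suz12, Ezh1 and Mtf2 lie at chr11:79992856-79993105 (plus), chr11:101226464-101226713 (minus) and chr5:108065424-108065673 (plus).
Jarid2: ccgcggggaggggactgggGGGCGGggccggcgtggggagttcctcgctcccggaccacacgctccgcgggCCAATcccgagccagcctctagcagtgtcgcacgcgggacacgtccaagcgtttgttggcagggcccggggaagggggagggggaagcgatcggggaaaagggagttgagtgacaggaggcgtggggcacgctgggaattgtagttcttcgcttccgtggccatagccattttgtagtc
Bmi1: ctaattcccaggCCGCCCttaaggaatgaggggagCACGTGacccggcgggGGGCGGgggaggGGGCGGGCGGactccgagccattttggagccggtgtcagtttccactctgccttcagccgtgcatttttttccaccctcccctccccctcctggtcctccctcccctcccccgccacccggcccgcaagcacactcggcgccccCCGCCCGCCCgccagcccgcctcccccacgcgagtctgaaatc
Ezh2: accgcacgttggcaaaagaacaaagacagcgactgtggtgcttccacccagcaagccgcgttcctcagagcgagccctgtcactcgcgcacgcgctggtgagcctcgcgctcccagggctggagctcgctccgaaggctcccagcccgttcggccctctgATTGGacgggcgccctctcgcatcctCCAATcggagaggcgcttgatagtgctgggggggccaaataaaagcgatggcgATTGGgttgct
Suz12: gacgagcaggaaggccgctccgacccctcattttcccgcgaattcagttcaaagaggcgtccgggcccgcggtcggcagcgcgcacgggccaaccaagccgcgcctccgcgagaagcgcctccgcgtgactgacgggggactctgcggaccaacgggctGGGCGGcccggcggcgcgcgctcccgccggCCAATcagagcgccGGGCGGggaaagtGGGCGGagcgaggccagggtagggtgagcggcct
Ezh1: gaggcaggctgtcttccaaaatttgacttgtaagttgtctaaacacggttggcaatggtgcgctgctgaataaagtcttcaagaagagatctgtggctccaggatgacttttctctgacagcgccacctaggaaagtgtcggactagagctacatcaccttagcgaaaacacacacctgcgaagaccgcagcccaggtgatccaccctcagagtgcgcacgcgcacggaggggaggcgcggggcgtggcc
Mtf2: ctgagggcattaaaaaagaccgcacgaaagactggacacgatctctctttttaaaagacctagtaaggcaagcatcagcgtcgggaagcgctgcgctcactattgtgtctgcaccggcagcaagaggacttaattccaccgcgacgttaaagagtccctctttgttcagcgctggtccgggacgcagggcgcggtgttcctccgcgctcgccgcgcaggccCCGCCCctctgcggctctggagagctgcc

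Jarid2, whose product binds nucleosomes and PRC2 and belongs to the Jumonji family without being an active demethylase, had the highest fold of the 10 in both libraries, beside a nearly equal Ezh2 in replicate 1. The gene (chr13:44730774-44921643, plus strand) has 2 starts in the table, at 44730774 and 44731271. In replicate 1 the peak over the starts (chr13:44729306-44731243, 1938 bp) had a fold of 13.3, a −log10 p of 35.9 and a −log10 q of 31.3, with 38 fragments at the summit over 1.94 expected. The replicate 2 peak (chr13:44729173-44731435, 2263 bp) had 19.8, 63.5 and 58.5, with 58 fragments over 1.98. Both peaks were therefore strong within their own libraries, at the 97.6th and 99.7th percentile of fold. The replicate 1 peak lay wholly inside that of replicate 2, but the summits differed, at −157 bp and −719 bp relative to the first start.

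A further shared region lay inside Jarid2 just after the starts. Replicate 2 had a single peak there of 2869 bp (chr13:44731643-44734511) with a fold of 9.06 and 26 fragments at its summit, 2470 bp after the second start. In replicate 1 the same stretch held a weak peak of fold 3.57 and a stronger one of fold 8.21 and 22 fragments (chr13:44733153-44734023), whose summit was 2498 bp after that start. Together with the start, the joined shared regions of 2263 bp and 3063 bp were wider than the median of 1051 bp over all 5457 shared regions, at the 90.1th and 96.8th percentile.

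The remaining shared peak of Jarid2 had a different composition. Its summits lay 138362 bp and 138386 bp after a start, with almost the same borders in both libraries (chr13:44869576-44870011 and chr13:44869574-44870011). Its folds of 4.49 and 3.97 were close to the median of each list, yet 68 and 82 fragments were stacked at the summit over 14.4 and 19.9 expected. The −log10 p of 24.5 exceeded 98.7% of the 1225 replicate 1 peaks with a fold within 10% of it, and the 25.3 of replicate 2 exceeded 99.4% of 2248. This was the highest number of fragments and of expected fragments at any peak of the 10 genes in each library. Jarid2 also had weak peaks seen in 1 library only, of fold 3.21 at 32843 bp after the start in replicate 1 and of 3.69 and 3.02 on either side of the start regions in replicate 2.

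**Figure D2:**
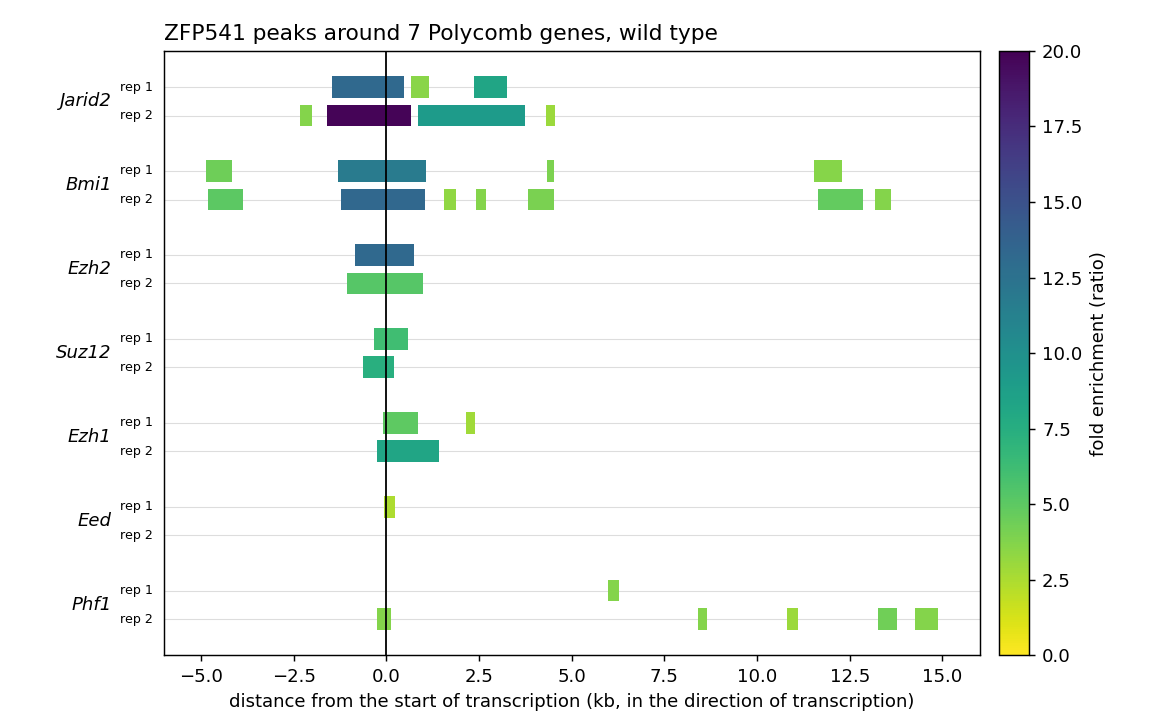
Peaks of the 7 Polycomb genes with any peak, drawn against the distance from the start of transcription (x axis, kb, in the direction of transcription; the first start for Jarid2), with 1 row per WT library and colour for fold enrichment (ratio). Jarid2, Bmi1, Ezh2, Suz12 and Ezh1 have overlapping bars of both libraries across 0, Eed and Phf1 have 1 library there, and the Jarid2 peaks further into the gene are outside the range drawn.

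At Bmi1, which encodes the PRC1 subunit also called PCGF4, both libraries had a broad peak across the start (chr2:18677018-18686629, plus strand). The replicate 1 peak (chr2:18675726-18678077, 2352 bp) had a fold of 11.8, a −log10 p of 29.3 and a −log10 q of 24.9, with 32 fragments over 1.80 expected. That of replicate 2 (chr2:18675807-18678064, 2258 bp) had 13.3, 39.4 and 34.9, with 43 fragments over 2.31. The summits lay 226 bp and 260 bp after the start. The peaks also reached the end of Commd3, the gene just upstream on the chromosome.

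Bmi1 stood in a neighbourhood with further peaks in both libraries. A shared peak upstream had summits at −4277 bp and −4041 bp and folds of 4.43 and 5.04. It overlapped the genes Commd3 and Gm33355 and lay within 1 kb of a start of each. Inside Bmi1, a shared peak with summits 4490 bp and 4420 bp after the start had folds of 3.93 and 4.03 and 10 and 11 fragments. Downstream of it, on the gene Gm46725, the folds were 3.65 and 4.84 with 19 and 24 fragments over 4.48 and 4.16 expected. Replicate 2 alone had 3 more peaks at this locus with folds from 3.36 to 3.69 and 9 or 10 fragments.

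The PRC2 catalytic subunits EZH2 and EZH1 both had a shared peak at the start of their genes, and the replicates ranked them in opposite order by fold. At Ezh2 (chr6:47530274-47595270, minus strand), the replicate 1 peak (chr6:47594281-47595881, 1601 bp) had a fold of 13.3, a −log10 p of 38.7 and a −log10 q of 33.9. The replicate 2 peak (chr6:47594051-47596101, 2051 bp) had 5.29, 18.8 and 14.99. The stacked fragments were nearly equal, 42 in replicate 1 and 41 in replicate 2, while the expected numbers were 2.24 and 6.94. The lower fold in replicate 2 thus went with a higher expected number and not with fewer fragments; the origin of the higher expected number was not tested. Both summits lay before the start, at −113 bp and −135 bp. The long noncoding RNA F830010H11Rik starts 179 bp upstream on the opposite strand, inside the same peaks.

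At Ezh1 (chr11:101191115-101226463, minus strand), the replicate 1 peak (chr11:101225606-101226552, 947 bp) had a fold of 4.92, a −log10 p of 12.3 and a −log10 q of 8.71, with 26 fragments over 4.48 expected. The replicate 2 peak (chr11:101225052-101226722, 1671 bp) had 8.21, 21.3 and 17.5, with 30 fragments over 2.77. Here too the fragments differed less than the folds. The summits lay 155 bp and 313 bp after the start, so the Ezh1 peaks reached into the gene. Replicate 1 had another peak 2372 bp after the start, of fold 2.86 and 7 fragments, which replicate 2 lacked.

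SUZ12 and EED, the non-catalytic core of PRC2, differed in what their genes showed. Suz12 (chr11:79993106-80034123, plus strand) had a replicate 1 peak (chr11:79992763-79993690, 928 bp) with a fold of 6.17, a −log10 p of 12.3 and a −log10 q of 8.69. In replicate 2 the peak (chr11:79992491-79993303, 813 bp) had 7.38, 15.3 and 11.7. The summits, with 19 and 21 fragments over 2.24 and 1.98 expected, lay at −149 bp and −103 bp relative to the start. Eed (chr7:89954654-89980976, minus strand), whose product reads the methylated lysine, had a single peak in replicate 1 (chr7:89980748-89981029, 282 bp). Its fold was 2.44, its −log10 p 2.73 and its −log10 q 0.0696, with 8 fragments over 2.69 expected, and it stood at the 2.51th percentile of that list. Replicate 2 had no peak within 149000 bp of Eed. The Eed peak had a q-value far above 0.05 and was not shared.

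The Polycomb-like genes Mtf2, Phf1 and Phf19, which encode related PRC2 accessory subunits with a Tudor domain, had no shared peak within 10 kb. Phf1 (chr17:26933127-26937908, plus strand) had a peak over its start in replicate 2 only (chr17:26932883-26933268, 386 bp), with a fold of 3.71, a −log10 p of 5.85, a −log10 q of 2.85 and 13 fragments over 2.77 expected. Replicate 1 had its single peak at the locus 6149 bp from that start, with a fold of 3.68, on Cuta. No peak of any library lay within 10 kb of Mtf2 (chr5:108065660-108109219) or Phf19 (chr2:34893752-34914353). The nearest WT peaks were 77899 bp and 78076 bp from Mtf2 and 22411 bp and 16022 bp from Phf19, for replicates 1 and 2.

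Scml2 (chrX:161082525-161258218) was the farthest of the 10 from any WT peak. The nearest was 1501694 bp away in replicate 1 and 1501714 bp in replicate 2. Shared peaks were scarce on the X chromosome as a whole: 37 of 963 X-linked protein-coding genes (3.84%) had one within 10 kb.

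**Figure D3:**
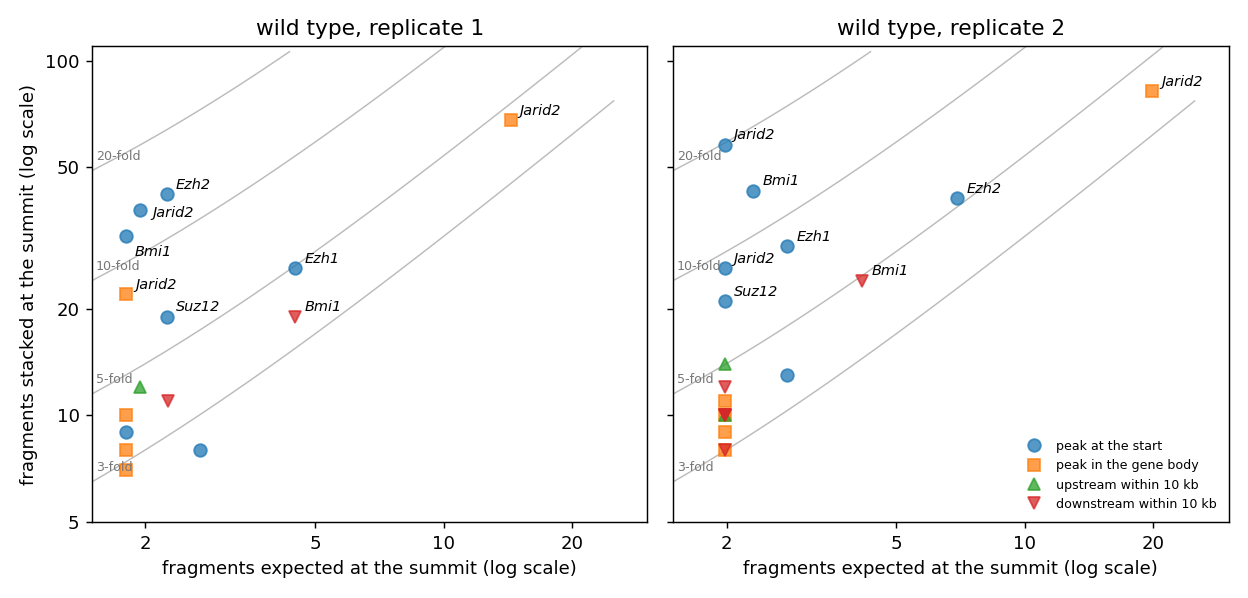
Fragments stacked at the summit (y axis, log scale) against fragments expected there (x axis, log scale) for the 15 peaks of replicate 1 and the 20 of replicate 2 near the Polycomb genes; symbols give the place of the peak and grey lines constant fold. Ezh2 has 42 and 41 fragments but moves from 2.24 to 6.94 expected, and the Jarid2 peak deep in the gene has the most fragments at 14.4 and 19.9 expected.

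By median fold, the WT peaks at these genes were stronger at the genes' own starts (6.17 and 8.21) than elsewhere, as a description of the 15 and 20 peaks. A peak counted as at a start when any part of it lay within 1 kb of a start of that same Polycomb gene. Peaks near the starts of the neighbours Commd3 and Gm33355, Cuta or Gm46725 counted as upstream or downstream, and so as elsewhere. Of 15 peaks in replicate 1, 7 were at an own start, with folds from 2.44 to 13.3 and a median of 26 summit fragments. In replicate 2 it was 7 of 20, with folds from 3.71 to 19.8 and a median of 30. In gene bodies, 5 peaks in each library had median folds of 3.93 and 3.69, and a median of 10 fragments in each library. Their highest folds were 8.21 and 4.03, and the most fragments at any peak, 68 and 82, were in a gene body. The replicate 1 Jarid2 peak of fold 8.21 counted as body, while the replicate 2 peak of 9.06 overlapping it counted as start. Overlap with the other replicate was seen for 11 of the 15 and 10 of the 20, beside 73.7% and 54.7% of all peaks of replicates 1 and 2. Over the genes with any peak, the median of the highest fold was 6.17 in replicate 1 (7 genes) and 7.80 in replicate 2 (6 genes), beside 5.36 and 5.37 over all protein-coding genes with a peak.

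In the knockout library the nearest peaks lay from 57652 bp (Ezh2) to 31001652 bp (Eed) away from the 10 genes. The knockout list started at a −log10 p of 4.47, a stricter value than the WT lists. Of the WT peaks at these genes, 12 of 15 and 17 of 20 were at or above that value, beside 80.2% and 66.7% of all WT peaks. The strongest shared start peaks of Jarid2, Bmi1, Ezh2, Suz12 and Ezh1 had a −log10 p of 12.3 or more in each library, and the weaker replicate 1 peak after the second Jarid2 start had 4.71. The knockout had 1 library of unknown depth, so a missing peak has no replicate check.

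Base composition of the promoters (250 bases before to 50 after a start) overlapped between the genes with and without a shared peak. The 5 with one had 23 to 41 CpG dinucleotides at the first start, highest in Suz12 with 41, against a median of 13 over 21262 promoters of protein-coding genes. Among all promoters, those with a shared peak had a median of 30 CpG and those without had 8. Phf19 with 38 CpG, Mtf2 with 30 at its first start and Phf1 with 24 were as rich, and Eed had 17 and Scml2 13. Of all promoters with at least 38 CpG, 77.7% had a shared peak, as did 63.0% of those with at least 30 and 51.0% of those with at least 24.

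Short sequence matches in these promoters varied from gene to gene. Ezh2 had 3 matches to CCAAT, at 90, 64 and 11 bases before the start, and 1 to TTTGGCGC, one of the searched E2F sequences, after it. Suz12 had 1 CCAAT, Jarid2 had 1 at each start and Mtf2 had 3 at its second start. At least 1 was found in 38.2% of all promoters and 34.2% of those with a shared peak. GGGCGG was found at 6 positions in Bmi1, 3 in Suz12 and 1 at each start of Jarid2, and, among genes with no shared peak, at 4 each in Phf19 and Phf1 and 1 at the first start of Mtf2; 46.2% of all promoters and 78.5% of those with a shared peak had it. Bmi1 alone of the 10 had CACGTG, found in 7.84% of all promoters and 12.8% of those with a shared peak. For TTTGGCGC these shares were 0.635% and 0.946%. Jarid2 had TATAAA 31 bases before its second start, with shares of 12.6% and 4.56%. Phf19 had AAGATGG, the searched YY1 sequence, with shares of 6.24% and 5.75%. Ezh1, Scml2 and, in the 250 bases before its start, Eed had none of the sequences searched. Matches are descriptions of letters in these windows.

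Other genes of the Polycomb machinery also carried many shared peaks. A list of 44 further genes held 31 (70.5%) with a shared peak within 10 kb, beside 29.4% of all protein-coding genes, and 26 (59.1%) at a start or end, beside 21.4%. Their median length was 54222 bp, against 17219 bp for all protein-coding genes. CpG content, with which shared peaks rose over all promoters, is not given here for the 44. The list was chosen with earlier results of these data known. By role, a shared peak within 10 kb was found at 13 of 15 PRC1 core genes, 7 of 9 genes of noncanonical PRC1, 4 of 6 further PRC2 accessory genes, 5 of 8 genes of the H2A deubiquitinase complex PR-DUB and 2 of 6 genes of the MBT and Scm family. None of the 44 had a knockout peak within 10 kb, where 0.34% of all protein-coding genes had one. The median highest fold at the start was 7.63 and 8.22 over the 26, 11.8 and 8.21 over the 5 above, and 5.71 and 6.38 over all 4664 protein-coding genes with a shared peak there.

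Among PRC1 genes, Cbx6, which encodes a chromodomain reader of methylated histone H3, had the highest rank in the list, with folds of 17.1 and 19.8 and a region of 4450 bp (chr15:79832289-79836738). The summit of its replicate 2 peak had 58 fragments, the same number as at Jarid2. Pcgf5, a paralogue of Bmi1, had highest folds of 14.6 and 13.7 at its starts, but in different shared regions. The region with 14.6 in replicate 1 had 9.91 in replicate 2. Its paralogue Pcgf2 had 7.86 and 9.16. The Polyhomeotic gene Phc2 had 7.41 and 13.1, and Rnf2, which encodes the main H2A ubiquitin ligase, had 7.36 and 11.4. The chromodomain genes Cbx2 (10.5 and 8.06) and Cbx7 (9.64 and 7.37) were also covered. Pcgf1 and Phc3, the PRC1 core genes without a shared peak, had no peak in any library within 10 kb; they are named after their values were seen.

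In noncanonical PRC1, Rybp had folds of 15.7 and 19.6, and Kdm2b, whose product binds unmethylated CpG, had 14.7 and 18.6. Yaf2, the paralogue of Rybp, had 8.17 and 9.40. Sfmbt1, of the MBT family, had 19.6 and 17.2. Lcor, whose locus also encodes a PRC2 accessory protein, had 14.6 and 9.40. In PR-DUB, Asxl3 had 11.4 and 11.7, Foxk2 10.7 and 8.39, and Asxl1 8.05 and 7.85. Rybp, Yaf2, Cbx2 and Asxl3 have no start in the promoter table, so their peaks are placed at a gene end of unknown kind.

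**Figure D4:**
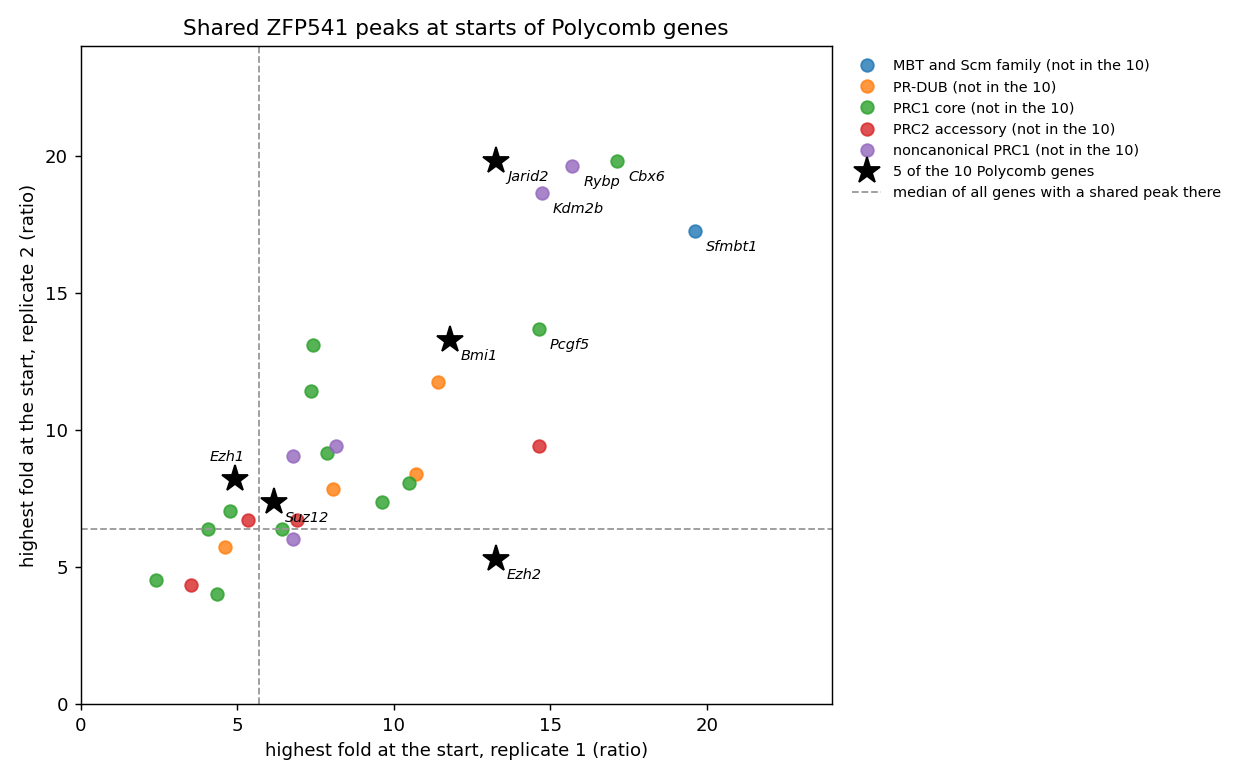
Highest fold enrichment at the start in replicate 1 (x axis, ratio) and replicate 2 (y axis, ratio) for the 31 Polycomb genes with a shared peak there, 5 of the 10 genes as stars and 26 others as dots coloured by role; dashed lines are the medians of 5.71 and 6.38 over all such protein-coding genes. Jarid2 lies with Cbx6, Rybp and Kdm2b at the upper end, and Ezh2 lies apart with 13.3 against 5.29.

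When all 4664 genes with a shared peak at a start or end were ranked by the mean percentile of fold over the replicates, Jarid2 stood at rank 56 and Bmi1 at 236. Ezh2 followed at rank 1493, Suz12 at 1761 and Ezh1 at 2070, near the middle of that ranking. Of the other Polycomb genes, Cbx6 ranked 16, Sfmbt1 23, Rybp 27 and Kdm2b 40.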

How the data were processed

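ZFP541 ChIP-seq peak lists of 2 wild-type libraries and 1 Zfp541-/- library were analysed. The build was mm10, the peak caller MACS2 2.2.6 and the aligner Bowtie2 2.3.5, beside deepTools 3.5.0, Picard, SAMtools 1.10 and cutadapt 2.6, per the submitters' processing notes. Caller settings and the control sample of each call were not given in the sources used here. Peaks were called per library, not on pooled replicates. The deposited lists give a fold (ratio), −log10 p, −log10 q, summit offset and a score equal to 10 times −log10 q without decimals.

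Summit fragments k and expected fragments e were solved from fold = (k + 1)/(e + 1) and the upper Poisson tail, for −log10 p up to 250. Nothing in the labels says whether the wild-type replicates came from separate animals. Genes and promoters came from RefSeq tables (GRCm38.p6); all 54 list names matched, 17491 of 21775 protein-coding genes had a start, and 108 entries before 3 Mb on autosomes and X were left out as scaffold coordinates. Windows were 10 kb around gene bodies and 1 kb around starts. The rule for names took the 10 genes and the 15 further list genes with the highest mean percentile of fold at a start. The genes and lists were chosen with earlier results of these data known. An NRF1 sequence fixed in the design was not searched. Overlaps and solved fragments were checked on simulated data. Software was scipy 1.17.1, pandas 2.3.3, numpy 2.4.6 and, for plots, matplotlib 3.10.9, under Python 3.11.15. Some peaks downstream of Phf1 are counted but not described here.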

Additional observations from a re-analysis of the deposited data

How the results depend on the processing

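The 5 genes with a shared peak (Jarid2, Bmi1, Ezh2, Suz12, Ezh1) kept it, within 10 kb and at the start, with the −log10 q minimum set to 1.3 or 5, under a reciprocal overlap of 50% and under every other window tried. At a −log10 q of at least 10 the count was 3, since Ezh1 and Suz12 lost it, in both windows. With either wild-type replicate left out, the count was 6 to 7 within 10 kb and 6 at the start, because Eed and Phf1 then counted; with 20 kb it was 6, with Phf1. The further Polycomb genes, 31 in the main count, were less stable. They numbered 29, 22 and 18 with a minimum of 1.3, 5 and 10, and 24 under the reciprocal overlap of 50%. With a replicate left out they numbered 34 to 36, and in the other windows 29 to 31. No share of all protein-coding genes is given under these minima, overlap or windows, so counts under them have no like comparison. Peaks at the 10 genes fell to 7 in replicate 1 and 9 in replicate 2 with a minimum of 5, and to 12 in replicate 2 on gene bodies only. The median highest fold in replicate 1 was 11.8 with a minimum of 5 and 13.3 with 10, where fewer genes have a peak. The knockout count was 0 under each alternative run. Each median rests on 1 replicate, so leaving out the other gives no further value. No paired analysis was possible because each list holds peaks without counts and the knockout has 1 library. Read depth, which is unknown, limits what a missing peak shows.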

Other observations

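Of the 44 further Polycomb genes, 5 had a shared peak within 10 kb but not at a start or end: Cbx8, L3mbtl2, Mga, L3mbtl1 and Mbd6, named after their values were seen. Mga, which encodes a partner of MAX in a noncanonical PRC1, had highest folds within 10 kb of 10.1 and 10.7, and L3mbtl1, an MBT-domain gene, 7.71 and 11.8. The remaining genes had between 2.44 and 4.70. For L3mbtl1 and L3mbtl2, no shared peak lay on the gene body or within 5 kb of it, so theirs were farther out. Of the 4 X-linked genes in that list, Rbbp7, which encodes a histone-binding subunit of PRC2, had a shared peak, with folds of 5.36 and 6.71, and Ezhip, Bcor and Bcorl1 had no peak in any library within 10 kb.

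The solved summit values of the whole lists differ between these libraries. The knockout side is 1 library, its list starts at a stricter −log10 p (4.47 against 2.71 and 2.54), and 216 of its 256 peaks were solved. In the wild-type lists 8198 of 8236 and 10340 of 10371 were solved. Peaks with a −log10 p above 250 were not solved, so the values below leave out the most significant peaks, a larger part of the knockout list. The median solved summit held 13 and 12 fragments in the wild-type replicates and 67.5 in the knockout library. The expected number was at the lowest level of its library for 54.3% and 63.2% of solved wild-type peaks and 19.0% of solved knockout peaks. The Jarid2 peak deep in the gene had 68 and 82 fragments over 14.4 and 19.9 expected. In fragments it was nearer to the median solved knockout peak than to the median solved wild-type peak, although the knockout list has no peak there. Fragment numbers depend on depth, which is unknown, and the origin of this peak was not tested.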
